A study of Mus musculus with 5 samples.

Results

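The Il10 cytokine cluster is a stretch of mouse chromosome 1 that carries the genes for 4 secreted proteins of the IL-10 family, Il24, Il20, Il19 and Il10, followed by the protein kinase gene Mapkapk2. Its H3K27ac peaks were taken by position alone. Every peak from 20 kb beyond the far end of Il24 to 30 kb beyond the far end of Il10 was kept, together with the peaks over Mapkapk2 or within 3 kb of one of its transcription start sites (TSSs). This gave 49 of the 124158 deposited peaks. Each peak was assigned to the nearest TSS of a protein-coding gene. Il10 was nearest for 34 of them, Mapkapk2 for 12, Il24 for 2 and the neighbouring gene Fcmr for 1. No peak was nearest to Il19 or Il20.

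The mark measured, H3K27ac, is an acetyl group on lysine 27 of histone H3 found at promoters and enhancers in use. It was mapped with CUT&Tag, in which an antibody guides a transposase to the mark and the transposase cuts and tags the DNA beside it. The cells were Treg cells (CD3+CD4+YFP+) sorted from the large intestine of C57BL/6 mice at 2 weeks of age, and the study used both sexes. Ctrl mice were Foxp3Cre-YFP Setd2 f/+ and KO mice were Foxp3Cre-YFP Setd2 f/f. Both groups thus carried the Cre recombinase under the control of Foxp3, the transcription factor of Treg cells, and at least 1 floxed allele of Setd2, the enzyme that trimethylates lysine 36 of histone H3, and Ctrl cells kept 1 allele that Cre cannot delete. Each group held 2 libraries, Ctrl 1 and Ctrl 2 against KO 1 and KO 2, and each library came from 60000 cells pooled from 3 to 5 littermates. The question was whether loss of Setd2 in Treg cells changes H3K27ac. An IgG library was listed without counts and was not analysed here.

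IL-10 is the cytokine with which intestinal Treg cells hold back macrophages and effector T cells, and mice that lack it or its receptor develop colitis. Its close relatives IL-19, IL-20 and IL-24 are made mainly by myeloid and epithelial cells and act on epithelium, through receptors that are distinct from that of IL-10. Mapkapk2 encodes MK2, the kinase below p38 MAPK that stabilises the mRNAs of cytokines. In T cells Il10 is controlled by enhancers on both sides of the gene, which bind factors such as c-Maf, Blimp-1, AP-1 with BATF and IRF4, and STAT proteins.

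The marked DNA itself is shown first. The 300 bases at the centres of 3 peaks upstream of Il10 are given because these peaks carried the broadest and the densest H3K27ac of the cluster and, of the upstream peaks above 20 CPM, the largest fold change between the groups. They lie on the plus strand of GRCm38.p6 (the assembly of mm10) at chr1:130999534-130999833, chr1:131003203-131003502 and chr1:131010686-131010985, all between genes, and are named by the distance of the peak's left edge from the Il10 TSS. Capitals mark matches to the motifs described after them.
Il10 -22.5 kb peak: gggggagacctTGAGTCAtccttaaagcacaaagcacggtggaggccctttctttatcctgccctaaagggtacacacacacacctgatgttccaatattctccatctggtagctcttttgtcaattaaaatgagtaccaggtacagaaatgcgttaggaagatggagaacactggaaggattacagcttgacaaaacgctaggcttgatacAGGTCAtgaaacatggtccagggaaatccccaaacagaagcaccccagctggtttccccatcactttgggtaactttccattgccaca
Il10 -17.1 kb peak: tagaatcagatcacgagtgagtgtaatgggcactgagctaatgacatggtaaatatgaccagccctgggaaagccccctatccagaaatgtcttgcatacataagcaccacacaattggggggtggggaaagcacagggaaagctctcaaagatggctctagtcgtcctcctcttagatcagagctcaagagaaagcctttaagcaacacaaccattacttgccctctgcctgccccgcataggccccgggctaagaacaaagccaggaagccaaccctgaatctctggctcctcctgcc
Il10 -9.9 kb peak: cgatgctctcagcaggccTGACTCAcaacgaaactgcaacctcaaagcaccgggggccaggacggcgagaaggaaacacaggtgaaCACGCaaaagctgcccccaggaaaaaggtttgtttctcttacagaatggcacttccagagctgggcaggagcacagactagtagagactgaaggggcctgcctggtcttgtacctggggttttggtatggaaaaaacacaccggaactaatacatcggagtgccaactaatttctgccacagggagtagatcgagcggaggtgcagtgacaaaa

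The 250 bases before the TSS are given for Il19, Il20 and Mapkapk2, on the minus strand that these genes share, because H3K27ac covered the third and was absent from the first pair. They are RefSeq sequences of GRCm38.p6, at chr1:130940116-130940365 for Il19, chr1:130911297-130911546 for Il20 and chr1:131097844-131098093 for Mapkapk2. The promoter table matched 3 of the 5 genes.
Il19 promoter: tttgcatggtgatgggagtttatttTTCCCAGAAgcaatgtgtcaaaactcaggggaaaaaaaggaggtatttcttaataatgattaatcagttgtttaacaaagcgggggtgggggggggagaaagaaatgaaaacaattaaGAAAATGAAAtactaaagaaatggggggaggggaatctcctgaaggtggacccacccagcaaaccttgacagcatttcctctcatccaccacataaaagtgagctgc
Il20 promoter: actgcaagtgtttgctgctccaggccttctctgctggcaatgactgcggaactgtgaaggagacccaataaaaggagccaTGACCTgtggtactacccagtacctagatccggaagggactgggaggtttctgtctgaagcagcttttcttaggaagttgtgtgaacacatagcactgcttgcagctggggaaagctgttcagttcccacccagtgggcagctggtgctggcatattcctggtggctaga
Mapkapk2 promoter: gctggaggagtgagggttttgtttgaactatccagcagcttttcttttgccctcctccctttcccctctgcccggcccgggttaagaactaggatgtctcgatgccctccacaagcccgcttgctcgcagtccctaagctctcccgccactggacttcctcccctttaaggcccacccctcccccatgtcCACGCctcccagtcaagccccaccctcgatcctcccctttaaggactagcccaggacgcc

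Motif letters were searched on both strands. Of the central 300 bases of the 49 peaks, 14 held the ROR half-site AGGTCA (28.6%, against 19.9% of all 74550 tested peaks) and 9 held the AHR core GCGTG (18.4% against 20.9%). The GATA letters AGATAA or TGATAA were in 6 (12.2% against 21.1%), the AP-1 site TGANTCA in 4 (8.16% against 9.56%) and the STAT site TTCNNNGAA in 4 (8.16% against 7.95%). The NFIL3 site TTANGTAA was in 1 (2.04% against 2.18%), as was the IRF composite site of 2 GAAA repeats (2.04% against 3.54%). The capitals in the -22.5 kb peak are an AP-1 and a ROR match, and those in the -9.9 kb peak an AP-1 and an AHR match. The -17.1 kb centre held none of these letters. In the promoters the capitals are a STAT and an IRF match in Il19, a ROR match in Il20 and an AHR match in Mapkapk2. Of all 32851 promoters in the table, 7.02% held the STAT letters, 2.98% the IRF site, 14.0% the ROR letters and 28.2% the AHR letters. The Mapkapk2 promoter was 60.4% G and C with 9 CpG dinucleotides, against medians of 52.4% and 6 over all promoters. That of Il20 was 52.8% G and C with 2 CpGs, and that of Il19 was 42.0% with 1. No listed matches overlapped each other, and a match is a stretch of letters, not a measured binding site.

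The libraries held 2395002 (Ctrl 1), 3630447 (Ctrl 2), 3007444 (KO 1) and 4712473 (KO 2) counts in peaks. Values are given as CPM, the counts scaled to a common library size after TMM normalization. The sorted cells carried the mark of Treg cells, with Foxp3, Il2ra, Ctla4, Ikzf2, Cd3e, Cd3d, Cd4 and Lck summing to 95.7 to 142 CPM per kb within 3 kb of their TSSs. On the same scale the sums were 1.53 to 2.33 for 4 B cell genes, with Ms4a1 and Pax5 at 0, and 4.35 to 6.54 for 6 myeloid genes, with Csf1r, Lyz2 and Adgre1 at 0. Counted at any distance, the 10 peaks nearest to Cx3cr1 summed to 179 to 213 CPM. The 9 nearest to Csf1r summed to 39.1 to 74.1 CPM and the 9 nearest to Adgre1 to 20.8 to 37.8 CPM, and Lyz2 had no peak. Those nearest to the myeloid gene Spi1 summed to 34.5 to 48.4 CPM. For the B cell gene Cd79a it was 44.7 to 73.6 CPM and for the epithelial gene Cdh1 25.9 to 47.7 CPM, whereas Ms4a1 and Krt20 had no peak. Within 3 kb of TSSs the sums were 2.19 to 3.43 for 5 epithelial genes, with Krt20 at 0, and 1.04 to 1.88 for 2 CD8 T cell genes, with Cd8a at 0. Mast cell genes (Kit, Cpa3, Mcpt1) were at 0 in this window in each library, although 40 peaks farther away had the Kit TSS as their nearest and summed to 171 to 227 CPM, and 3 fibroblast genes at 0 to 0.424, with Col1a1 and Col3a1 at 0. Over Setd2 the promoter peak held 26.2 and 25.0 CPM in Ctrl and 27.2 and 33.3 CPM in KO, which does not check the deletion. Together with 10 weaker peaks over or beside the gene the sums were 56.6 and 89.6 CPM in Ctrl and 45.8 and 68.3 CPM in KO. Within the gene the peak chr9:110606414-110606813 had 14 and 11 counts in Ctrl but 0 and 7 in KO (a log2 fold change of -2.31, adjusted p = 0.998 by edgeR), and none of the tested Setd2 peaks passed. Which of them lie in the deleted part is not given in the sources used here.

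H3K27ac over the cluster was concentrated on Il10. The peaks nearest to Il10, the regulatory cytokine itself, summed to 605 and 496 CPM in Ctrl and to 677 and 552 CPM in KO. The groups overlapped, and within each group replicate 1 held more than replicate 2. The gene (ENSMUSG00000016529.5, chr1:131019845-131024974, plus strand) ranked 196th of 14421 tested genes by this sum, which grows with the number and length of the peaks. Only 441 of the 16319 genes with a peak had 34 or more peaks, and the median gene had 4. The 34 peaks ran from -38.2 kb to 36.5 kb relative to the TSS and covered 40.9 kb (54.7%) of the 74.8 kb between the outermost edges.

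The Il10 start itself was acetylated at 10.2 and 10.1 CPM per kb in Ctrl and 13.5 and 10.7 CPM per kb in KO, counted within 3 kb of its TSSs. That level was above those of 94.6% of the 21851 protein-coding genes, so the start of this cytokine gene was among the more strongly acetylated ones in these cells. Genes without a peak in this window tied at rank 12566, whereas Il10 ranked 1189th and Mapkapk2 3023rd. Mapkapk2 followed at 7.69 and 7.14 CPM per kb in Ctrl and 5.15 and 9.14 in KO (86.2nd percentile), and the libraries of Il10 and Mapkapk2 did not overlap in this measure, which is per length and so can be compared between genes. Il24 was at 0.121 and 0.559 CPM per kb in Ctrl and 0.20 and 0.161 in KO. Il19 and Il20 had no peak within 3 kb of a TSS in any library.

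**Figure D1:**
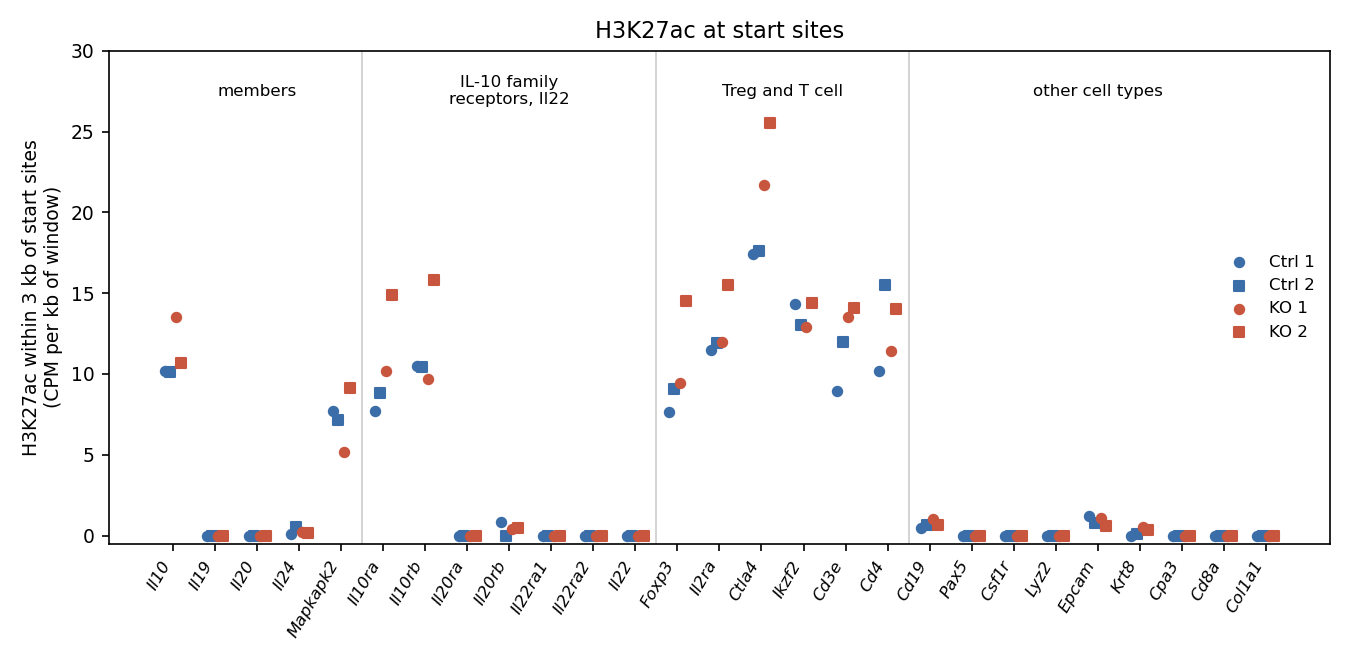
H3K27ac within 3 kb of TSSs in CPM per kb of window (y axis) for the cluster genes, IL-10 family receptors with Il22, and markers of Treg cells and other cell types (x axis). Each point is 1 library, with Ctrl in blue, KO in red, circles for replicate 1 and squares for replicate 2. Il10 and Mapkapk2 lie between 5.15 and 13.5 CPM per kb in each library, whereas Il19, Il20 and several markers of other cells lie at 0.

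Il19 (ENSMUSG00000016524.12, chr1:130932656-130940115) and Il20 (ENSMUSG00000026416.12, chr1:130906985-130911451) lay inside a stretch of 96.5 kb without a peak, chr1:130885089-130981614. Of the 124137 gaps between neighbouring peaks, 95.4% were shorter, and the median gap was 2.84 kb. The stretch began at the last peak of Il24 and ended at the first of the upstream peaks of Il10. Both encode ligands that signal through IL-20 receptors, and neither gave a value to compare between the groups. The peaks had been called on these libraries, so signal too weak to be called as a peak in any of them is not represented.

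Il24 (ENSMUSG00000026420.16, chr1:130882074-130887454, minus strand), whose product also binds IL-20 receptors, had 2 small peaks. Their summed counts were 19 and 18 for Ctrl against 15 and 16 for KO. One lay over an exon and intron of Il24 (chr1:130884767-130885088) where the Ctrl libraries had 2 and 14 counts and the KO libraries 4 and 5, under the minimum for a test. The other (chr1:130878189-130878556) overlapped Fcmr. Summed for the gene, H3K27ac was 8.60 and 5.36 CPM in Ctrl and 5.59 and 3.83 CPM in KO, with a log2 fold change of KO over Ctrl of -0.56 (SE 0.80, 95% interval -2.38 to 1.26, adjusted p = 1 by edgeR). At this depth the interval spanned both a large fall and a large rise. The Fcmr promoter peak beside it, just before the start of the IgM receptor gene, held 18.1 and 23.5 CPM in Ctrl and 15.6 and 15.8 CPM in KO, so that both KO libraries were below both Ctrl libraries (log2 fold change -0.41, SE 0.41, adjusted p = 0.998).

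**Figure D2:**
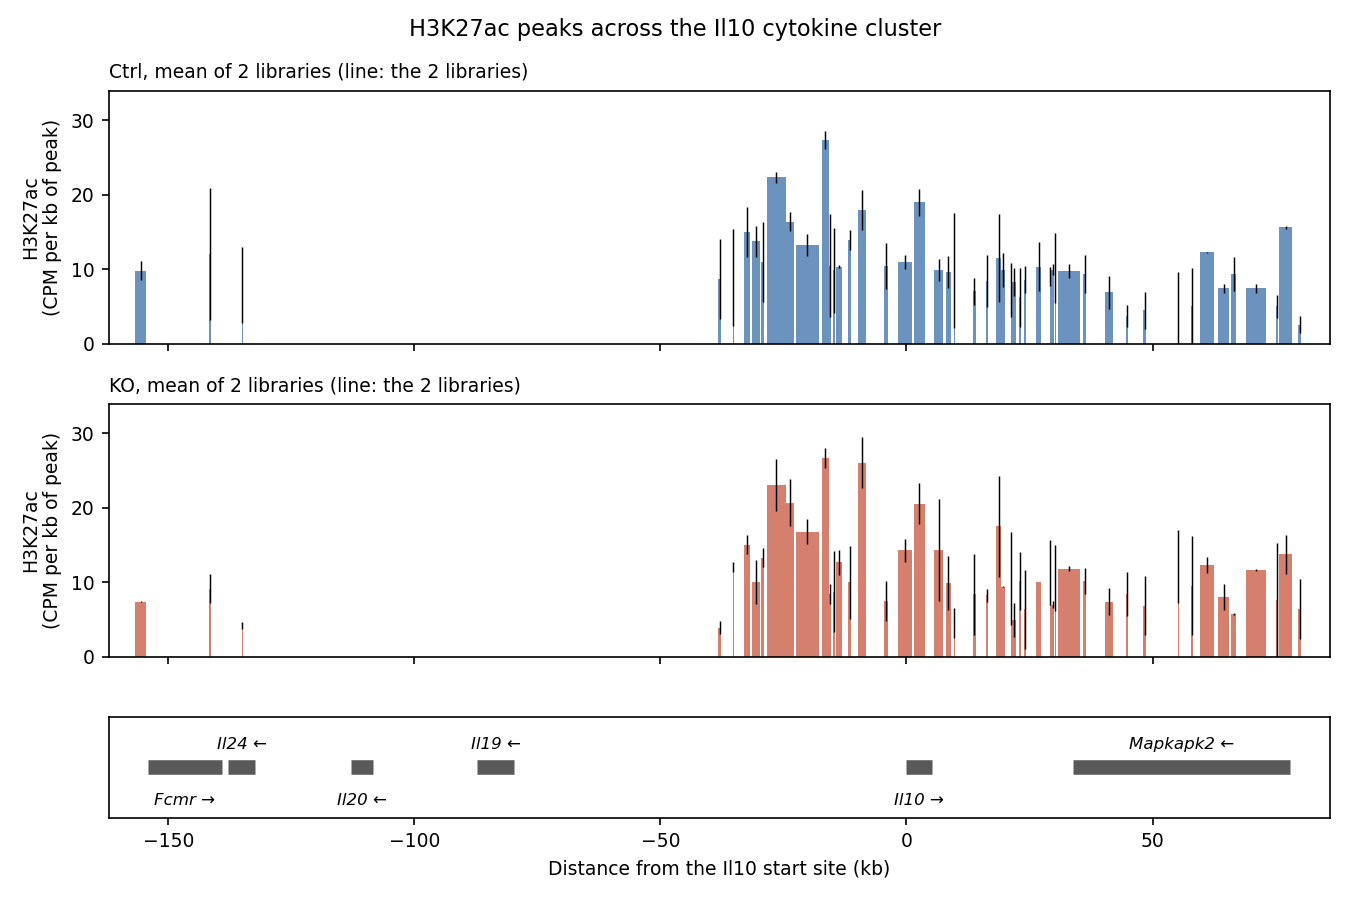
Mean H3K27ac of each peak in CPM per kb of peak (y axis) in Ctrl (top) and KO (middle), against the distance from the Il10 TSS in kb (x axis). Bars are as wide as the peaks, vertical lines join the values of the 2 libraries, and the lower panel shows the genes with their direction. The stretch over Il20 and Il19 is empty in both groups, and the upstream peaks of Il10 reach a mean of 27 CPM per kb over the 4 libraries.

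More than 15 kb upstream of Il10, 10 peaks formed the most strongly acetylated stretch of the cluster, with 302 and 245 CPM in Ctrl and 297 and 285 CPM in KO. This was 38.4% and 36.2% of all cluster counts in Ctrl and 34.8% and 37.3% in KO. The strongest peak, at -28.4 kb (chr1:130991413-130995301), held 84.1 and 89.9 CPM in Ctrl and 76.0 and 103 CPM in KO. KO lay on both sides of Ctrl, and the log2 fold change was 0.04 (SE 0.28, 95% interval -0.51 to 0.59). The broadest peak, at -22.5 kb (chr1:130997381-131001985, 4605 bp), held 67.9 and 54.2 CPM in Ctrl and 85.0 and 69.7 CPM in KO. Both KO libraries were above both Ctrl libraries, by a log2 fold change of 0.34 (SE 0.29, 95% interval -0.23 to 0.92, adjusted p = 0.998 by edgeR).

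Between and beside them stood the densest peak of the cluster, at -17.1 kb (chr1:131002704-131004000), with 37.1 and 33.9 CPM in Ctrl and 32.8 and 36.4 CPM in KO. Its mean of 27 CPM per kb was higher than in 99.2% of all tested peaks, and the groups overlapped (log2 fold change -0.03, SE 0.33). The peak at -24.5 kb (chr1:130995363-130996974) held 28.5 and 24.4 CPM in Ctrl and 38.4 and 28.3 CPM in KO, with a log2 fold change of 0.33 (SE 0.35). KO 2 fell just under Ctrl 1 there, so the groups overlapped. The peak at -33.1 kb (chr1:130986767-130988141) held 25.3 and 16.1 CPM in Ctrl and 22.4 and 18.9 CPM in KO, with both KO libraries between the Ctrl ones (log2 fold change 0.01, SE 0.39). Of the 9 tested peaks more than 15 kb upstream, 6 were higher and 3 lower in KO, with log2 fold changes of -0.45 to 0.5. The largest fall was at -31.3 kb, with 24 and 17.6 CPM in Ctrl and 19.7 and 10.8 CPM in KO, where the groups overlapped.

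Closer to the gene, 5 peaks between 3 and 15 kb upstream of the TSS held 71.9 and 52.7 CPM in Ctrl and 88.7 and 60.4 CPM in KO. The peak at -9.9 kb (chr1:131009982-131011689) was the strongest of these and had the largest fold change of the upstream peaks above 20 CPM. It held 35.3 and 26.2 CPM in Ctrl and 50.3 and 38.6 CPM in KO. Both KO libraries were above both Ctrl libraries, the log2 fold change was 0.53 (SE 0.33, 95% interval -0.11 to 1.18), and the adjusted p by edgeR was 0.998. The other 4 peaks here, at -14.9, -14.3, -11.8 and -4.6 kb, had means of 2.69 to 15.3 CPM and log2 fold changes of -0.51 to 0.29, none with an unadjusted p under 0.05.

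The promoter peak of Il10 (chr1:131018195-131021029), over the TSS and exons 1 and 2, held 28.5 and 33.6 CPM in Ctrl and 44.7 and 36.2 CPM in KO. Both KO libraries were above both Ctrl libraries, with a log2 fold change of 0.37 (SE 0.33, 95% interval -0.28 to 1.02, adjusted p = 0.998 by edgeR). The peak over exons 3 and 4 (chr1:131021278-131023585) held 48.0 and 39.6 CPM in Ctrl and 53.7 and 41.0 CPM in KO, and there the groups overlapped (log2 fold change 0.11, SE 0.31). Per kb the body peak was the denser of the pair, at 19.7 CPM per kb against 12.6 for the promoter peak.

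Downstream of Il10, up to the 3′ end of Mapkapk2, 15 peaks held 111 and 69.3 CPM in Ctrl and 131 and 71.9 CPM in KO. Both libraries numbered 1 stood far above both numbered 2, whatever the genotype. The strongest peak there, at 5.6 kb (chr1:131025470-131027338), held 21.3 and 15.8 CPM in Ctrl and 39.5 and 13.9 CPM in KO. Its log2 fold change of 0.51 (SE 0.38) rested on KO 1, without which it was -0.42. The next peaks by position, at 8.1, 9.6 and 13.5 kb, had means of 2.04 to 8.60 CPM. Farther out, the peak at 18.2 kb (chr1:131038076-131039086) held 17.6 and 5.65 CPM in Ctrl and 24.6 and 10.8 CPM in KO. Its log2 fold change of 0.62 (SE 0.46) was the largest of the tested Il10 peaks, and the groups overlapped.

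The pattern by replicate number ran through the Il10 peaks. Both libraries numbered 1 were above both numbered 2 in 15 of the 27 tested peaks nearest to Il10 (55.6%), and the opposite held in 2. In all tested peaks the share was 20.7%, and in intergenic ones 30.1%. Among the intergenic Il10 peaks alone it was 14 of 23 (60.9%), but among the 8 tested Mapkapk2 peaks it was 0, with 3 the other way. The libraries numbered 1 were also the shallower ones of their group, and the part of depth or of any shared handling in the Il10 values was not tested.

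**Figure D3:**
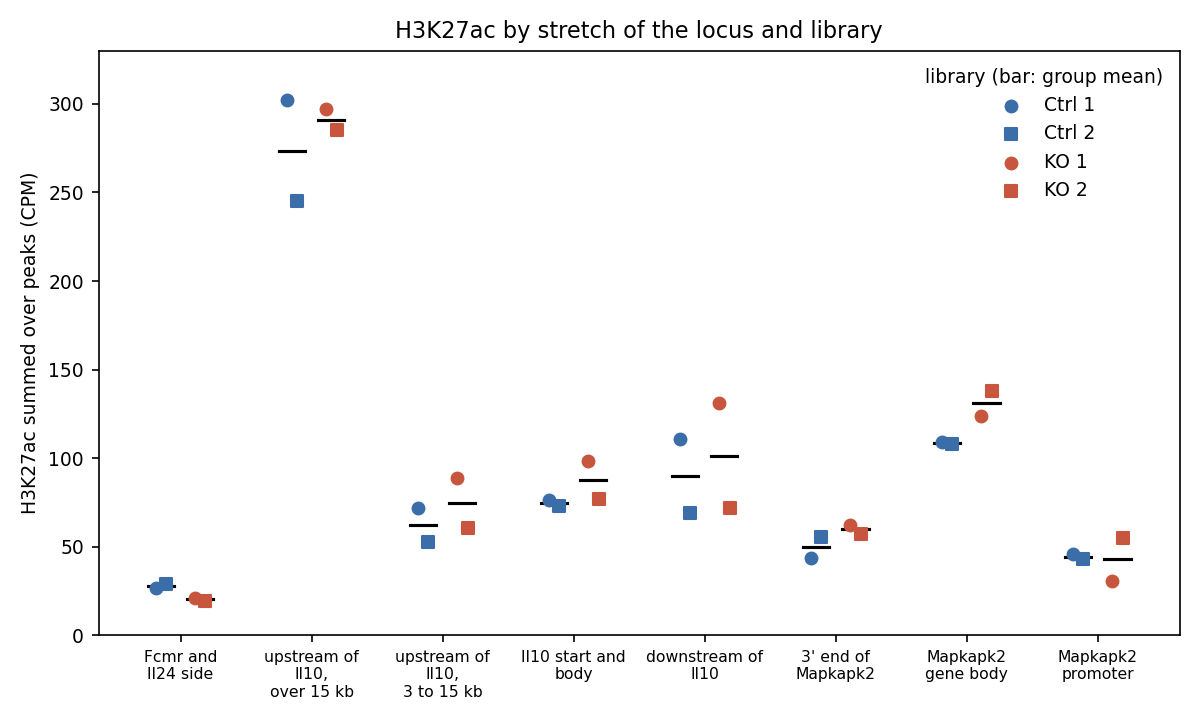
H3K27ac summed over the peaks of each stretch in CPM (y axis) for the 8 stretches of the cluster in genomic order (x axis). Points are libraries (Ctrl blue, KO red, circles replicate 1, squares replicate 2) and bars are group means. Downstream of Il10 both circles (111 and 131) lie above both squares (69.3 and 71.9), and over the Mapkapk2 gene body both KO points lie above both Ctrl points, which holds only with the intronic peak at chr1:131088814-131092845 included.

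Between Il10 and the Mapkapk2 introns lay a further strong peak. This peak over the 3′ end of Mapkapk2 (chr1:131050544-131055083, exon 10) was assigned to Il10 only because its TSS is the nearest start, and which gene it belongs to was not tested. It held 39.8 and 48.5 CPM in Ctrl and 55.1 and 52.5 CPM in KO, and the KO libraries did not overlap with the Ctrl ones (log2 fold change 0.28, SE 0.31, adjusted p = 0.998 by edgeR).

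Mapkapk2 (ENSMUSG00000016528.10, chr1:131053700-131097826, minus strand) had its promoter peak at chr1:131095603-131098239, over exon 1. This peak held 41.6 and 40.8 CPM in Ctrl and 29.4 and 43.1 CPM in KO. KO 1 alone was low, the groups overlapped, and the log2 fold change was -0.17 (SE 0.32). Inside the gene the intronic peak chr1:131079406-131082343 was level, with 35.7 and 36.3 CPM in Ctrl and 33.2 and 39.3 CPM in KO (log2 fold change 0.01, SE 0.33).

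The intronic peak nearer to the Mapkapk2 promoter, chr1:131088814-131092845, was the only one of the cluster with an unadjusted p under 0.05. It held 27.6 and 32.4 CPM in Ctrl and 46.6 and 47.7 CPM in KO. The KO libraries nearly coincided and lay above both Ctrl libraries, with a log2 fold change of 0.65 (SE 0.33, 95% interval 0.00 to 1.29, adjusted p = 0.998 by edgeR). By DESeq2 its unadjusted p was not under 0.05. This peak also overlaps Gm37084, a gene model that the annotation lists as still to be tested experimentally. The 9 peaks of the Mapkapk2 body, without its 3′ end, summed to 109 and 108 CPM in Ctrl and 124 and 138 CPM in KO, and without the peak just described to 81.4 and 75.9 CPM in Ctrl and 77.9 and 90.3 CPM in KO, where the groups overlapped. This second sum was added after the values had been seen.

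Over the whole cluster no tested peak was called different between KO and Ctrl after adjustment, by edgeR or DESeq2. Of the 49 peaks, 37 had at least 10 counts in at least 2 libraries and were tested (27 of Il10, 8 of Mapkapk2, 1 of Il24 and 1 of Fcmr). After Benjamini-Hochberg adjustment over all 74550 tested peaks none of the 37 passed (smallest adjusted p 0.998 by edgeR), where 1 peak of all passed, which is 0.00134%. DESeq2 called 0 of the 37 as well. At an unadjusted edgeR p under 0.05, 1 was higher in KO and 0 were lower, against 1.45% higher and 2.79% lower of all tested peaks, and DESeq2 gave 0. Both KO libraries were above both Ctrl libraries in 6 of the 37 and below them in 3, against 16.9% and 16.4% of all. Fold changes were above 0 in 22 and below 0 in 15 (59.5% above, against 49.2% of all tested peaks and 57.7% of the intergenic ones). Their median on the log2 scale was 0.04, with a range of -0.72 to 1.22, and that of all tested peaks was -0.01.

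**Figure D4:**
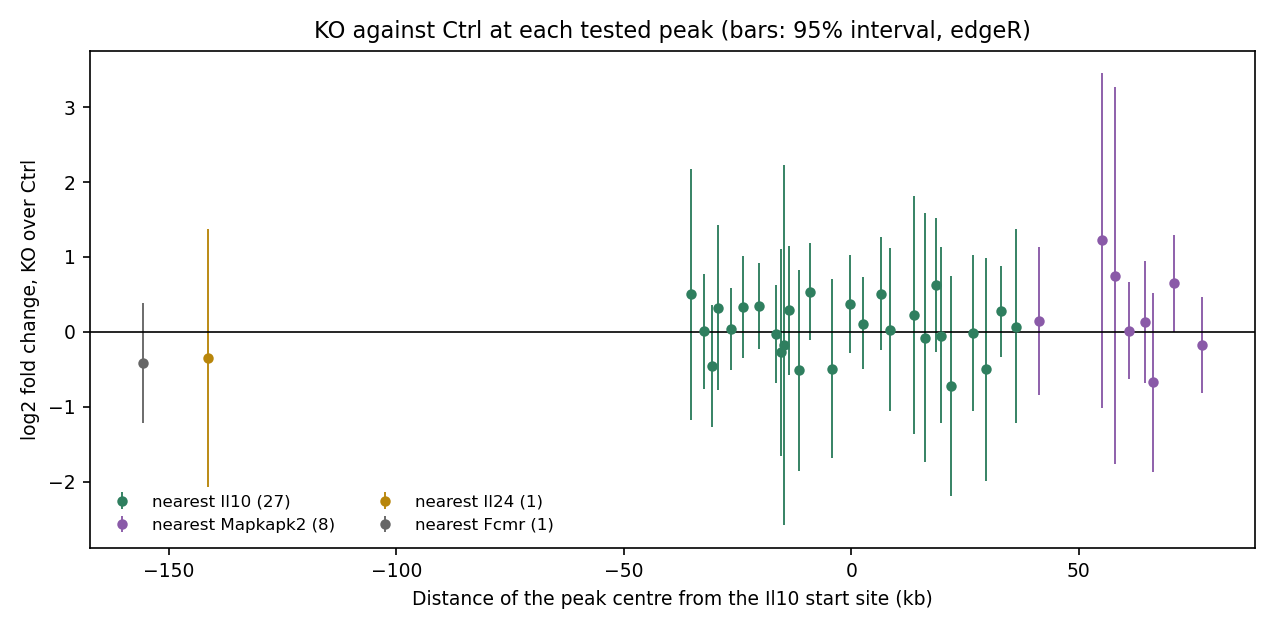
Log2 fold change of H3K27ac, KO over Ctrl (y axis), for the 37 tested peaks against the distance of the peak centre from the Il10 TSS in kb (x axis). Points are edgeR estimates, bars their 95% intervals, and colours the gene with the nearest TSS. Every interval crosses 0 except that of the Mapkapk2 intron peak, whose lower end is 0.00, and the points lie between -0.72 and 1.22.

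Per gene, the sum over Il10 was 550 ± 77.3 CPM in Ctrl and 615 ± 88.6 CPM in KO (mean ± SD, n = 2), a log2 fold change of 0.16 (SE 0.20, 95% interval -0.29 to 0.61, adjusted p = 1 by edgeR over 14421 genes). The sign was not stable, since the value was -0.0068 under a loess offset on abundance and -0.013 without KO 1. Mapkapk2 had 19 nearest peaks, 7 of them beyond those kept here, and held 220 and 198 CPM in Ctrl and 205 and 234 CPM in KO. Its log2 fold change was 0.07 (SE 0.21, 95% interval -0.41 to 0.56, adjusted p = 1) and turned to -0.0039 under the loess offset and -0.055 without KO 2. No gene at all passed the adjusted threshold (0%) by edgeR or DESeq2. At an unadjusted p under 0.05 edgeR gave 59 genes higher in KO (0.409%) and 301 lower (2.09%), DESeq2 gave 50 and 174, and none of the cluster genes was among those of edgeR.

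The balance between the 2 main genes was also measured within each library, which needs no scaling between libraries. The Il10 peaks took 76.9% and 73.3% of all cluster counts in Ctrl and 79.3% and 72.2% in KO, so the KO libraries lay on both sides of Ctrl. By the rule of the nearest TSS they include 2 peaks over the 3′ end of Mapkapk2. Those took 5.58% and 8.24% in Ctrl and 7.29% and 7.52% in KO. For Mapkapk2 only its 12 peaks kept here were counted. The log2 ratio of Il10 to Mapkapk2 counts was 1.96 and 1.71 in Ctrl and 2.12 and 1.52 in KO. Two-sided exact permutation tests gave p = 1 for both, and 0.333 is the smallest p that 2 against 2 libraries allow. The whole cluster held 787 and 676 CPM in Ctrl and 854 and 765 CPM in KO (p = 0.667 by the same exact test). In a sorted population fewer cells with the mark and less mark per cell cannot be told apart.

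The genes whose 4 values were most like those of Il10 were Smtn, Ninj2 and Tgfbr2, at Euclidean distances of 0.0226, 0.0236 and 0.0268 between log2 CPM values centred over the 4 libraries. Tgfbr2, a subunit of the TGF-β receptor, held 1120 and 895 CPM in Ctrl and 1220 and 1000 CPM in KO. Ninj2, an adhesion protein gene, held 662 and 536 CPM in Ctrl and 738 and 611 CPM in KO. With 4 libraries this describes the order of the libraries, with Ctrl 2 lowest and KO 1 highest.

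Genes that act with the cluster were read from lists, in which no gene passed. Of 10 receptors and other ligands of the family, 8 were tested, 6 higher and 2 lower in KO, with a median log2 fold change of 0.18. Under a loess offset on abundance 7 were higher and 1 lower, with a median of 0.23. Both subunits of the IL-10 receptor were acetylated at their start. Il10ra, the ligand-binding chain, stood at 7.68 and 8.83 CPM per kb in Ctrl and 10.2 and 14.9 in KO. Il10rb, the chain shared with other family receptors, stood at 10.5 and 10.4 in Ctrl and 9.68 and 15.8 in KO. The starts of Il20ra, Il22ra1, Il22ra2, Il22, Ifnl3 and Ifnlr1 had no peak. Il20rb, a chain of the IL-20 receptors, was at 0 to 0.829 CPM per kb.

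All 9 genes of IL-10 signalling had a fold change above 0 (median 0.21), from the receptor kinase Jak1 (534 and 643 CPM in Ctrl, 680 and 757 in KO) to the NF-kB regulator Bcl3 (204 and 206 CPM in Ctrl, 215 and 294 in KO). None had an unadjusted p under 0.05, and under a loess offset on abundance all 9 stayed above 0 with a median of 0.21. Of 23 regulators of Il10 in T cells, 22 were higher and 1 lower, with a median of 0.25 that became 0.07 (15 higher, 8 lower) under a loess offset on abundance. The Treg and T cell markers lay above 0 in 7 of 8, with a median of 0.27. Under the loess offset that median was 0.2 (6 higher, 2 lower). In the main scaling KO was above Ctrl without overlap in 6 of the 8 markers, against 1833 of all 14421 genes. Ctla4 was the 1 marker among them with an unadjusted edgeR p under 0.05. The median was -0.25 over 5 tested myeloid genes and -0.49 over 2 fibroblast genes, 0.17 over 3 B cell, -0.05 over 4 epithelial, 0.02 over 2 mast cell and 0.65 over 2 CD8 T cell genes. The part of these shifts in the regulator values was not tested. The regulator with the largest fold change was Ets1, a lymphocyte transcription factor, with 1600 and 1810 CPM in Ctrl and 2110 and 2600 CPM in KO (log2 fold change 0.47, SE 0.16, adjusted p = 1 by edgeR), the only one with an unadjusted p under 0.05. Maf, which encodes c-Maf, held 1150 and 848 CPM in Ctrl and 1230 and 1000 CPM in KO, with replicate 1 above replicate 2 in each group as at Il10. Over all 14421 genes 7237 were higher and 7184 lower, with a median of 0.002.

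Of 19 genes of the p38 to MK2 pathway 18 were tested, 14 higher and 4 lower with a median of 0.10. With total counts as library size it was 10 and 8 with a median of 0.05, and under the loess offset 12 and 6 with 0.06. None of them had an unadjusted p under 0.05. Zfp36l2, an mRNA-destabilising protein of the family that MK2 restrains, held 1320 and 1230 CPM in Ctrl and 1400 and 1590 CPM in KO. Zfp36 itself held 368 and 376 CPM in Ctrl and 454 and 545 CPM in KO, with a log2 fold change of 0.43 (SE 0.19, adjusted p = 1 by edgeR). Of the 7 neighbours of the cluster, 6 were tested and 4 were higher. Dyrk3, a kinase gene beyond Mapkapk2, held 15.8 and 16.7 CPM in Ctrl and 24.2 and 25.2 CPM in KO (log2 fold change 0.60, SE 0.39, adjusted p = 1).

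**Figure D5:**
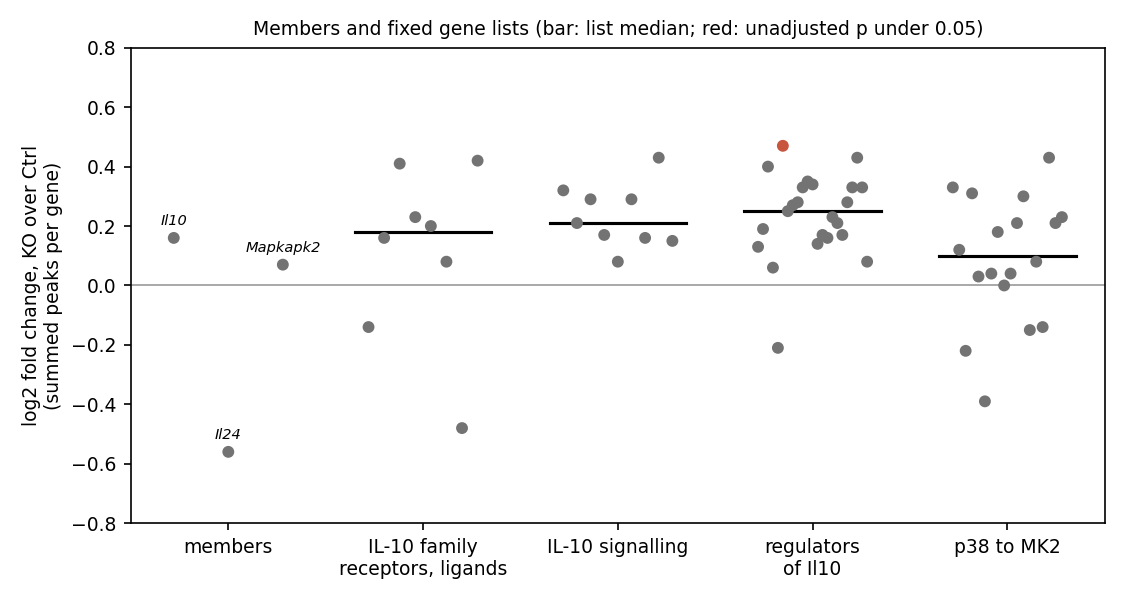
Log2 fold change of summed H3K27ac, KO over Ctrl (y axis), for the tested cluster genes and for 4 gene lists (x axis). Each point is 1 gene, bars are list medians (0.18, 0.21, 0.25 and 0.10), and red marks Ets1, the one gene with an unadjusted edgeR p under 0.05. No gene passed after adjustment, and under a loess offset the list medians were 0.23, 0.21, 0.07 and 0.06 in the same order.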

How the data were processed

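H3K27ac CUT&Tag libraries of large intestinal Treg cells from Ctrl and KO mice were compared (n = 2 per group). The authors trimmed the reads, aligned them to mm10 with Bowtie2, kept uniquely mapped reads, removed duplicates, called peaks with MACS2 (p 0.01) against IgG and merged them with bedtools. The deposited table holds raw counts of reads in each merged peak, not normalized. Tool versions are not given in the sources used here. The IgG library was not analysed here.

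A minimum of 10 counts in 2 or more libraries was set for peaks and for summed genes. KO was tested against Ctrl in edgeR 4.0.16 (R 4.3.3) by quasi-likelihood, with TMM, no covariate and Benjamini-Hochberg adjustment over all features. The prior degrees of freedom were infinite for peaks, so a peak's own spread did not enter its SE. Genes took all peaks nearest to a TSS of a protein-coding gene (GENCODE M21) and the scaling of the peak table. SE was derived from the fold change and the F statistic. DESeq2 1.42.0, other scalings, filters, annotations, the replicate block and leaving out each library were alternatives. Code was tested on simulated data. Coordinates are 1-based. The sequence of 1 peak and the values of 1 listed gene are not reported here.

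The cluster members, gene lists and motifs were chosen with earlier results of these data known. Peaks named were those at the TSS of each gene, the 5 strongest, those within 15 kb of the Il10 TSS and those with an unadjusted p under 0.05. The other tested peaks with a mean of at least 20 CPM were named as well, a limit that the plan did not list. The peaks at 18.2 kb and -31.3 kb were added after the values had been seen. From a list, values were given for genes among the 6 with the highest CPM.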

Additional observations from a re-analysis of the deposited data

How the results depend on the processing

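No peak or gene of the cluster passed the adjusted threshold under any alternative (DESeq2, other scalings, filters, annotations, robust fit, replicate block, leaving out each library). For the 13 peaks whose fold change was followed, the smallest adjusted p over 156 alternatives was 0.236, 132 values kept their direction and 24 reversed. The peaks at -24.5, -22.5 and -9.9 kb, at the Il10 promoter, at the 3′ end of Mapkapk2 and in its promoter-proximal intron did not reverse, but with a library left out they ranged over 0.083 to 0.51, 0.18 to 0.50, 0.32 to 0.75, 0.20 to 0.50, 0.14 to 0.44 and 0.53 to 0.78. With 2 libraries per group the intervals are wide, so that the absence of calls does not exclude moderate differences at single peaks, and where leaving out a library left 1 in a group, its spread was taken from the other.

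At an unadjusted p under 0.05, 0 cluster peaks were higher in KO with DESeq2, a loess offset or library sizes taken as total counts. The number was also 0 with no count filter or a minimum of 50 counts, and 3 with the replicate block. Over all 74550 tested peaks the replicate block gave 3490 higher, against 1079 in the main fit. DESeq2 gave 445 of them, the loess offset 1140 and total counts 770. With no count filter it was 1256 of 124158, and with the minimum of 50 counts 108 of 16011. The median log2 fold change of the cluster peaks ranged from -0.18 (without Ctrl 2) to 0.28 (without Ctrl 1). Under a loess offset the log2 fold change became -0.0068 for Il10, -0.0039 for Mapkapk2, -0.17 at -28.4 kb, -0.058 at -33.1 kb, -0.016 over the Il10 body and -0.11 in the intron at chr1:131079406-131082343. With a minimum of 50 counts it was -0.047 for Mapkapk2, -0.084 at -28.4 kb, -0.11 at -33.1 kb and -0.11 in that intron, and the median of all genes moved to -0.11. Il24 could not be tested with that minimum or from promoter and gene body peaks alone. With total counts it was -0.017 at -28.4 kb, -0.05 at -33.1 kb and -0.045 in that intron. It was -0.0013 at -33.1 kb with DESeq2, 0.011 at -17.1 kb with no count filter and -0.042 for Mapkapk2 with all gene types. With only tested peaks the Il10 to Mapkapk2 log2 ratio differed by 0.035 between KO and Ctrl, against -0.02.

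Leaving out 1 library gave log2 fold changes of -0.013 (without KO 1) to 0.30 for Il10, -0.055 (without KO 2) to 0.15 for Mapkapk2 and -0.87 to -0.20 for Il24. It gave -0.30 to 0.35 at -33.1 kb, -0.23 to 0.22 at -28.4 kb, -0.14 to 0.023 at -17.1 kb, -0.11 to 0.27 over the Il10 body, -0.42 to 1.07 at 5.6 kb, -0.15 to 0.11 in the intron and -0.52 to 0.05 at the Mapkapk2 promoter. The Il10 share changed by -2.91 to 4.2 percentage points and the log2 ratio by -0.32 to 0.29. The cause of these shifts was not tested.

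Libraries with the same number deviated together (r = 0.24), but only 2 pairs exist. The authors describe the Ctrl and KO mice as littermates, and no source says that a number marks a shared litter or day. With the replicate block 152 peaks were called higher and 59 lower of all tested, against 1 and 0, and 369 and 398 genes, against 0. None of the cluster was among them.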
